A study of Mus musculus with 17 samples.

Results

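The regions described here are the stretches of mouse chromosome 15 on both sides of Nr4a1, the gene for the nuclear receptor Nur77. All peaks of the 17 ATAC-seq peak lists were merged over the lists where they shared at least 1 bp, and merged sites with peaks in 2 or more lists were kept. The members are the sites of a 12.9 Mb window around the gene (mm10, the GRCm38 assembly), leaving out the 61 kb that hold Nr4a1, Atg101 and the start of 6030408B16Rik. There were 680 such sites of 77900 in the genome, 499 at lower and 181 at higher coordinates than Nr4a1. The window reached 10.3 Mb below and 2.63 Mb above the gene, which lies on the + strand from 101254269 to 101274795, and it holds 211 protein-coding genes.

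The cells were macrophages differentiated from the bone marrow of male mice aged 6 to 12 weeks and grown for 7 days with L929-conditioned medium. The labels give the strain of all 17 samples as C57Bl6/J. Wild-type (WT) cells had 3 samples without lipopolysaccharide (LPS, 0 h), 2 after 1 h and 3 after 18 h of 100 ng/ml LPS, and Nur77-deficient (KO) cells had 3 at each of these times. Of the WT samples at 1 h, 1 is labelled replicate 1-2, and whether it pools replicates is not given in the sources used here. Its list was the shortest and had the lowest depth. The KO mice lack Nur77 in the whole body: mice with loxP sites around Nr4a1 were crossed with mice that express Cre recombinase from the CMV promoter, and a line free of Cre was then bred, with WT littermates as controls. The labels call the KO genotype cre, and no label says whether replicates came from separate mice, so that the p-values measure the spread between these samples, which may be technical. The methods name C57Bl6/J for the Cre-expressing parents, and the strain of the floxed line and of the embryonic stem cells in which its allele was made are not given in the sources used here.

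Nur77 is an orphan nuclear receptor that macrophages switch on as an immediate-early gene after LPS, and it binds DNA as a monomer at the NBRE motif. Alleles that lie near each other on a chromosome are inherited together, so the DNA on both sides of a targeted gene tends to travel with it through breeding. ATAC-seq reads out accessible chromatin, at the promoters of genes in use and at distal elements such as enhancers, which differ more between cell states than promoters do.

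The deposited lists held 24389 to 71456 peaks, and the background read density estimated from them ranged from 0.382 to 9.75 reads per kb. To put the lists on an equal footing, the best 24389 peaks of each, the number in the shortest list, were used, and a site was tested when 2 or more of these equal-length lists had a peak there. That left 316 flank sites of 34165 in the genome, and 364 flank sites were too weak to be tested. At 18 h the genotypes did not overlap in depth: 4.62 to 8.38 reads per kb in WT and 1.1 to 1.76 in KO. The depth of KO 18 h replicate 1, 1.59 reads per kb, rests on a shortest peak of 66 bp, and it would be 0.572 with the median shortest peak of 184 bp. A peak says that a site was open in enough cells, and fewer cells with the site open and a smaller opening per cell cannot be told apart. Of 8 macrophage marker genes, Adgre1, Itgam, Spi1 and Mertk had a promoter peak in all 17 equal-length lists, Lyz2 in 16, Csf1r and Cd68 in 12 and Cx3cr1 in 0. Of 21 markers of T cells, B cells, neutrophils, fibroblasts and erythroid cells, 15 had none in any, S100a8 had one in 15, Cd5 and Col1a1 in 14 and Ms4a1 in 10. The coding part of Nr4a1, from 101270085 to 101274249, had a peak in 0 of the 17 deposited lists, so peak presence there says nothing about the deletion.

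The 6 sequences that follow are the centres of the flank sites on which the results turn, 151 bases around the strongest summit in GRCm38. The Ano6, Slc11a2 and Pou6f1 sites had the lowest p-values for a genotype difference in presence, the Slc38a1 and Krt75 sites shared the lowest p-value for a difference in rank, and the Acvr1b site opened with LPS. Capitals mark matches on either strand to AP-1 (TGACTCA or TGAGTCA), NBRE (AAAGGTCA), PU.1 (GAGGAAGT), C/EBP (TTGCNNAA or TTACNNAA), CTCF or NF-kB. All are distal to start sites and none lies in an exon.
Ano6 intron site, chr15:95828174-95828324, + strand: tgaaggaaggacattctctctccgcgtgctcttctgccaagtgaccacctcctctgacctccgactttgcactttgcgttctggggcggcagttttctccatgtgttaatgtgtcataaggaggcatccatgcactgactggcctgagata
Site upstream of Slc11a2, chr15:100443632-100443782, + strand: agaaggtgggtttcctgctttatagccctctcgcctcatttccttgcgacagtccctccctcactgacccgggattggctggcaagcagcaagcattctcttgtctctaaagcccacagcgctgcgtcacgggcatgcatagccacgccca
Pou6f1 intron site, chr15:100590537-100590687, + strand: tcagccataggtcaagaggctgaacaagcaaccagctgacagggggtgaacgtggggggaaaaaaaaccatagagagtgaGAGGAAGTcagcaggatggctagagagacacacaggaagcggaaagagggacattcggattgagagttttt
Slc38a1 intron site, chr15:96638294-96638444, + strand: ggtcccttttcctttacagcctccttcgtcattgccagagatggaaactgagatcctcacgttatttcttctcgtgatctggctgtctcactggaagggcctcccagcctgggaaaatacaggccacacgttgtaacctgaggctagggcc
Site near Krt75, chr15:101583301-101583451, + strand: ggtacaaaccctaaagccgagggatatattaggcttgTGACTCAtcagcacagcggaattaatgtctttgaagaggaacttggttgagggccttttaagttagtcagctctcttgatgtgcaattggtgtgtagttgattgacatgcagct
Site near Acvr1b, chr15:101155179-101155329, + strand: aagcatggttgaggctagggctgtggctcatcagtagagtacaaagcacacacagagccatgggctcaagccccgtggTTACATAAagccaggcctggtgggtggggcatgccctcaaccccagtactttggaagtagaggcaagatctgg

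By position, the tested flank sites resembled the rest of the genome. Of the 316 sites, 50 had their summit in an exon, 113 in an intron and 153 between genes, and 103 (32.6%) lay within 1 kb of a protein-coding start site, against 30.1% of the 33849 sites elsewhere. A peak in all 17 equal-length lists was found at 97 flank sites (30.7%) and at 30.4% of the others. Promoters were the steady class, with 57 of 103 (55.3%) in all lists, while 40 of 213 distal flank sites (18.8%) were. The sites with the best mean rank were all promoters: those of Sp1, a GC-box transcription factor (mean rank 38), of Tarbp2, a cofactor of Dicer (232), of Copz1, a subunit of the COPI vesicle coat (381), of Kansl2, a subunit of a histone acetyltransferase complex (566), and of Atf7, a bZIP transcription factor (569). None of these 5 differed between genotypes in presence, since every list had them.

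Between the genotypes, the flanks differed more than the rest of the autosomes did. Similarity of 2 lists was measured by the Jaccard index, the sites that both lists hold divided by those that either holds, and the genotype gap is the mean index of same-genotype pairs minus that of KO-WT pairs, within an LPS time and averaged over the times. Over the flank sites the same-genotype mean was 0.785 and the KO-WT mean 0.74, a gap of 0.0444. Over the 33290 sites of the rest of the autosomes the means were 0.787 and 0.766, a gap of 0.0217. The flanks thus held pairs of 1 genotype about as alike as elsewhere, and KO-WT pairs less alike. In exact permutation tests that exchanged genotype within LPS time, the flank gap had p = 0.001, the smallest value this design can give, the gap elsewhere had p = 0.01, and their difference of 0.0227 had p = 0.002. Against the other 1115 sites of chromosome 15, whose gap was 0.0223, the flanks stood 0.0221 higher (exact p = 0.006).

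The gap was present at each time: 0.0481 at 0 h, 0.0455 at 1 h and 0.0397 at 18 h in the flanks, beside 0.0185, 0.0176 and 0.029 in the rest of the autosomes. The gaps of the times did not differ beyond the spread of the lists (exact permutation p of 0.64 to 0.91). At no time did pairs of both genotypes stand clearly above the KO-WT pairs. At 0 h WT pairs had a mean index of 0.878, while KO pairs had 0.786, close to the 0.784 of KO-WT pairs. At 1 h KO pairs had 0.788 and the single WT pair 0.7205, below the 0.7255 of KO-WT pairs. At 18 h WT pairs had 0.851 and KO pairs 0.651, below the 0.711 of KO-WT pairs. In the rest of the autosomes the order was the same at 1 and 18 h. With the log2 depth of the lists as a covariate the flank gap was 0.0322 (exact p = 0.004) and the difference from the rest 0.022 (exact p = 0.002). With depth computed at the median width for every list these were 0.0248 (exact p = 0.017) and 0.0218 (exact p = 0.002). Without the 18 h lists these were 0.0468 and 0.0288, each with an exact p of 0.01, the smallest that remains possible for the gap. Of the 17 lists, leaving out WT 18 h replicate 1 or 2 raised the exact p of the flank gap above 0.05: without replicate 1 it was 0.0243 (exact p = 0.059) and without replicate 2 it was 0.0285 (exact p = 0.063), while the difference from the rest stayed between 0.0185 and 0.0282 whichever list was left out. When a peak had to cover 50% of a site, that difference was 0.00981 (exact p = 0.149), beside a flank gap of 0.112. With all deposited peaks the difference was 0.0206 (exact p = 0.001), beside a flank gap of 0.0964. In both settings the gap of the rest was thus larger as well, and the flanks stood less far above it in proportion.

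The excess over the rest of the autosomes was seen at distal sites. The gap was 0.0652 at the 213 distal flank sites and 0.0289 at the distal sites of the rest of the autosomes, and the difference of 0.0363 had an exact p of 0.001. At the 103 flank promoters the gap was 0.01 (exact p = 0.046), against 0.00877 at promoters elsewhere (exact p = 0.023), a difference of 0.00126 (exact p = 0.82). Among distal flank sites at 0 h, WT pairs had a mean index of 0.808, KO pairs 0.683 and KO-WT pairs 0.675. At 1 h these were 0.61, 0.712 and 0.626. At 18 h they were 0.786, 0.566 and 0.612, so that KO pairs were the least alike of the 3 kinds.

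**Figure D1:**
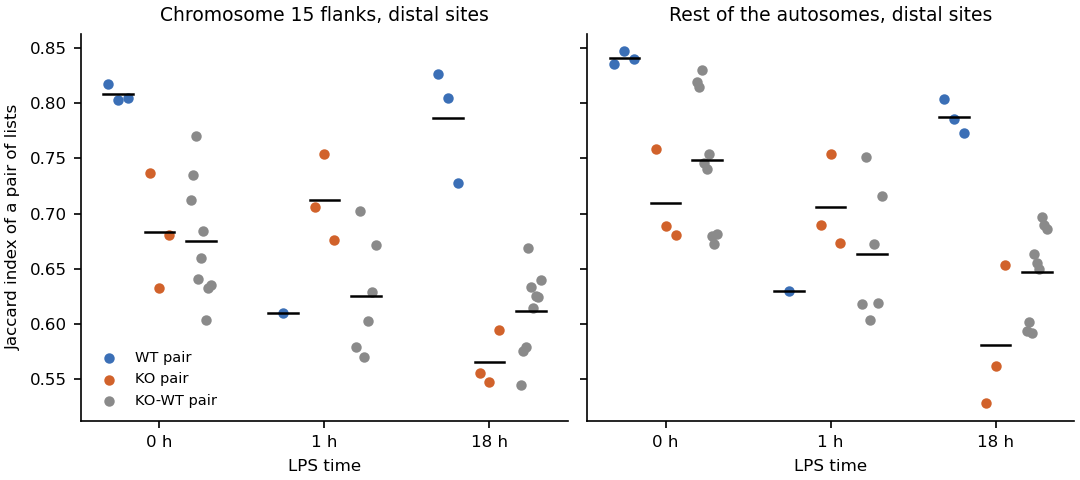
Jaccard index of every pair of equal-length lists of the same LPS time, at distal sites of the flanks (left) and of the rest of the autosomes (right). Points are pairs and black bars their means. In the flanks 22 of 24 KO-WT pairs and 11 of 16 same-genotype pairs sat lower than elsewhere, the latter including all 6 at 0 h.

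The difference lay on the lower side of Nr4a1. The 232 sites at lower coordinates had a gap of 0.0548 (exact p = 0.001) and the 84 sites at higher coordinates one of 0.0187 (exact p = 0.137). The sides differed by 0.0361 (exact p = 0.012). The higher side minus the rest of the autosomes was -0.00296, which is within the spread of the lists (exact p = 0.752), while the lower side was 0.0331 above it (exact p = 0.001).

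Along the distance, the gap did not fall off steadily with Mb from the gene. In 1 Mb bins the gap was 0.108 in the first Mb below Nr4a1 (48 sites), 0.0371 from 1 to 2 Mb (55 sites), 0.00904 from 2 to 3 Mb (45 sites) and 0.0419 from 3 to 4 Mb (28 sites). It then rose again, to 0.0692 from 4 to 5 Mb (22 sites), 0.109 from 5 to 6 Mb (13 sites) and 0.105 from 6 to 7 Mb (7 sites), and was 0.0111 from 7 to 8 Mb (5 sites) and 0.0496 from 9 to 10.3 Mb (8 sites). With Benjamini-Hochberg adjustment of the exact p over the 12 bins that had enough sites, the bins at 0 to 1 Mb (adjusted p = 0.006), 1 to 2 Mb (0.039), 4 to 5 Mb (0.006) and 5 to 6 Mb (0.028) passed 0.05, all on the lower side. The bin at 6 to 7 Mb did not (0.0816), nor did those at 7 to 8 Mb (adjusted exact p = 1) and 9 to 10.3 Mb (0.371), and neither did any of the 3 bins on the higher side, with gaps of 0.0251, 0.0278 and 0.00149. All 12 gaps were above 0, as was that of the rest of the autosomes. Sites within 3 Mb on both sides had a gap of 0.0386 and those beyond 5 Mb one of 0.0726, a difference of -0.0341 that was within the spread of the lists (exact p = 0.086) and turned to 0.0139 (exact p = 0.441) when deposited peaks with a −log10 q of at least 10 were used. Every site beyond 5 Mb lies on the lower side and all 84 sites of the higher side are within 3 Mb, so that this difference mixes side with distance. On the lower side alone, the 148 sites within 3 Mb had a gap of 0.0512, and the difference was -0.0214 (exact p = 0.259). Over both sides it passed 0.05 when any of 4 KO lists was left out, as with -0.0436 (exact p = 0.04) without KO 0 h replicate 1, -0.0545 without KO 1 h replicate 1, -0.0454 without KO 1 h replicate 3 and -0.0568 without KO 18 h replicate 3.

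At 1 and 18 h the number of flank sites a list held did not overlap between the genotypes, in opposite directions. At 1 h the WT lists held 189 and 205 of the 316 sites and the KO lists 217, 209 and 214, while at 18 h the WT lists held 217, 208 and 209 and the KO lists 171, 197 and 200. The genotypes overlapped at 0 h alone, with 222, 216 and 224 in WT and 230, 218 and 210 in KO. Over all 34165 tested sites of the genome, the lists at 18 h held 67.5 to 70.3% in WT and 56.2 to 63.9% in KO, and at 1 h 59.5 and 66% in WT and 63.7 to 68% in KO, so that the genotypes did not overlap at 18 h there either and overlapped at 1 h. At 18 h the KO lists, which held fewer sites in the flanks and elsewhere, were also the shallower ones. The flanks took 0.894 to 0.98% of the equal-length peaks of a list, and the WT mean at 0 h was 0.938% ± 0.0103 (SD, n = 3), beside a KO mean of 0.957% ± 0.0103 (SD, n = 3). At 1 h, where the difference was largest, the WT mean was 0.927% ± 0.029 (SD, n = 2) and the KO mean 0.959% ± 0.0228 (SD, n = 3). At 18 h the WT mean was 0.907% ± 0.0095 and the KO mean 0.903% ± 0.0166 (SD, n = 3 each). KO minus WT over the times was 0.0159 percentage points (exact p = 0.111), and 0.00911 points without WT 1 h replicate 3 (exact p = 0.391). With the best 10000 peaks of every list it was 0.0411 points (exact p = 0.004), and with all deposited peaks 0.00345 points (exact p = 0.78). Occupancy, the percent of a bin's sites with a peak, differed in 2 of the 12 bins: it was 15.4 points higher in KO from 5 to 6 Mb below the gene (adjusted exact p = 0.048) and from 6 to 7 Mb below it was lower, with KO minus WT at -17.5 points (adjusted exact p = 0.03). These bins hold only 13 and 7 sites. At 18 h the genotypes overlapped from 6 to 7 Mb below, with 71.4% in each WT list and 71.4, 71.4 and 57.1% in KO.

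**Figure D2:**
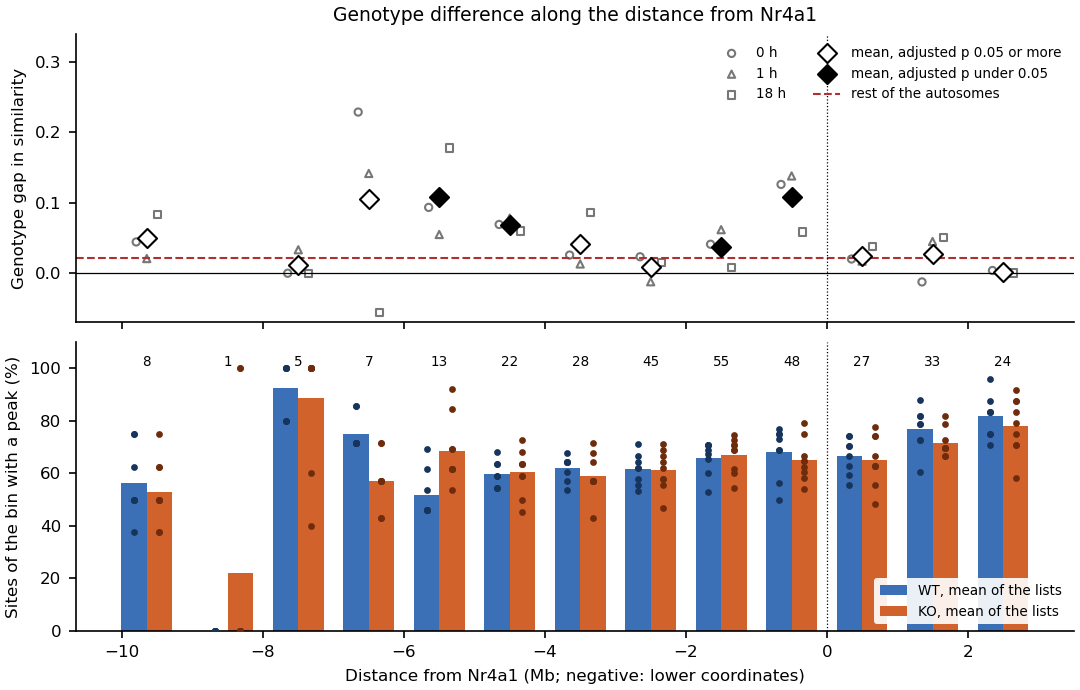
Genotype gap (top) and percent of sites with an equal-length peak (bottom) in 1 Mb bins of distance from Nr4a1. Diamonds are gaps averaged over the LPS times, small open symbols the gaps at each time, the dashed line the rest of the autosomes (0.0217), bars the genotype means, dots the single lists and numerals the sites per bin. The 4 filled diamonds all lie below the gene.

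Site by site, 14 of the 316 flank sites (4.43%) had an exact permutation p under 0.05 for presence, beside 1.07% of all sites tested in the genome, and 3 (0.949%) had a p under 0.01, beside 0.199%. Of the 14 sites, 7 were found more often in KO and 7 more often in WT, 13 were distal, and 14 lay at lower coordinates than Nr4a1. Of all 316 tested flank sites, 213 were distal and 232 lay at lower coordinates. A site in all lists, as 55.3% of flank promoters were, cannot differ in presence. An all-or-none pattern, a peak in every list of 1 genotype and in none of the other, was seen at 1 flank site, beside 0.0234% of all sites (8 sites). After adjustment over the genome 0 sites passed 0.05 in this exact permutation test (smallest adjusted p = 1).

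The all-or-none site lay in an intron of Ano6, which encodes a calcium-activated phospholipid scramblase, at chr15:95827755-95829223 and 5426 kb below Nr4a1. In the 9 KO lists it ranked 6046, 5671 and 4444 at 0 h, 9686, 10048 and 6787 at 1 h, and 5432, 6595 and 10833 at 18 h. In WT it ranked 61826 and 60847 in 2 of the 0 h lists and 51214, 49004 and 36202 at 18 h, with no peak in the remaining 0 h list or in either 1 h list. The genotypes did not overlap at any time, and the WT peaks, where present, all lay past the equal length (exact p = 0.00025, the smallest possible).

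The site upstream of Slc11a2, the gene for a divalent metal ion transporter, showed the reverse pattern at chr15:100443071-100444207, 811 kb below Nr4a1. It ranked 13591, 11943 and 13824 in WT at 0 h, 13422 and 10431 at 1 h, and 18207 and 15282 in 2 of the 3 WT lists at 18 h. No deposited KO list had a peak there, although those lists ran to between 27429 and 70843 peaks. WT 18 h replicate 3 was the 1 WT list without it, and the exact p was 0.001. The nearest start site, of Slc11a2, was 18635 bp away.

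In an intron of Pou6f1, which encodes a POU-domain transcription factor, a site at chr15:100590306-100591012 was found in KO cells before and early after LPS. It ranked 14517, 17996 and 10735 in KO at 0 h and 19762, 23264 and 17906 at 1 h, then 29168 and 28068 in 2 lists at 18 h. In WT it ranked 59129, 48775 and 57512 at 0 h and was absent from the lists at 1 and 18 h. It was held at equal length by 6 of 9 KO and 0 of 8 WT lists (exact p = 0.005).

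The other 11 sites had weaker patterns. Their mean ranks, with absence counted as the rank after the last, ran from 20751 to 23862, and the best rank in any list from 9409 to 20390. More often in KO were a second Ano6 intron site 5362 kb below Nr4a1 (5 of 9 KO and 0 of 8 WT lists), a site 4481 kb below near Slc38a2 (6 and 0), an Asb8 intron site (7 and 2), an internal start site of Lima1 (8 and 3) and a site near Slc4a8, 504 kb below (5 and 0). More often in WT were sites near Slc38a1 (4 of 8 WT and 0 of 9 KO lists), Hdac7 (7 and 3), Ccdc65 (4 and 0) and Fignl2 (4 and 0), and sites in introns of Lima1 (5 and 0) and Galnt6 (4 and 0). Their exact p-values ran from 0.01 to 0.04. The site at the 5′ end of Lima1, 1379 kb below Nr4a1, was in 7 WT and 9 KO lists (exact p = 0.4 for presence). For rank the exact p was 0.0475 at that site and 0.121 at the internal start site. At each of these 11 sites at least 1 list of the other genotype had a peak in its deposited list. The site near Ccdc65 had one in 7 of 9 KO lists (best rank 25289) and that near Slc4a8 in 6 of 8 WT lists (best rank 25962). The Galnt6 intron site had one in 1 of 9 KO lists (rank 60077). Absence from the equal-length lists thus need not mean loss of the peak from the deposited lists.

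**Figure D3:**
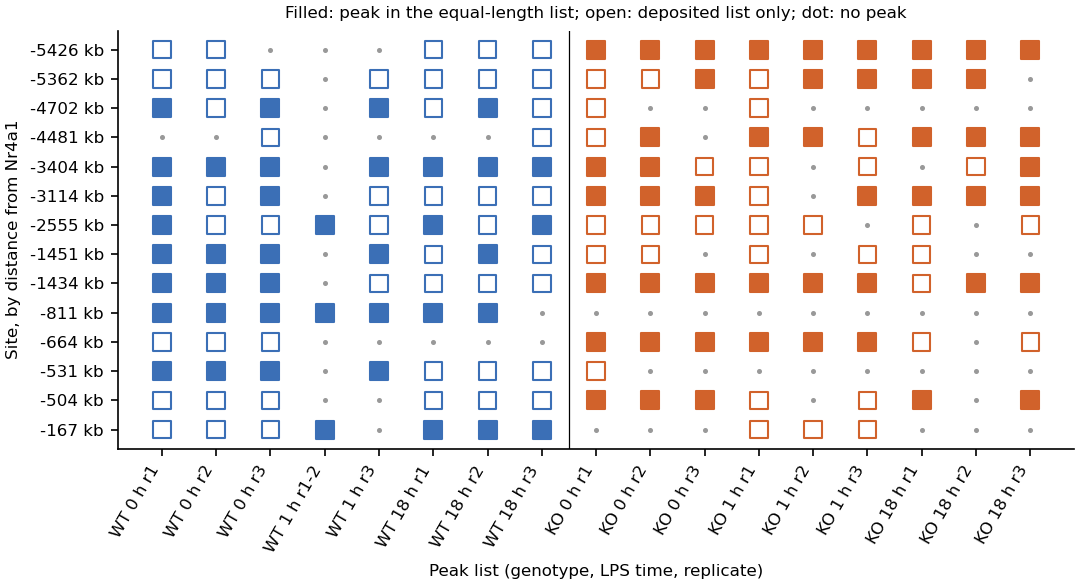
Peak presence at the 14 flank sites with an exact p under 0.05, from the farthest below Nr4a1 (top) to the nearest (bottom), in the 8 WT and 9 KO lists. The site at 5426 kb is filled in every KO list and no WT list, and that at 811 kb is empty in every KO list.

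Rank within a list was tested as well, at sites that every list held and at sites that some lists lacked. By the log2 of the rank, with absence counted as the rank after the last, 13 flank sites (4.11%) had an exact p under 0.01, 7 with better and 6 with worse ranks in KO, beside 2.08% of all sites. Most of these 13 sites lacked an equal-length peak in some lists. The Ano6 all-or-none site, the Slc11a2 upstream site and the Asb8 intron site also had a presence p under 0.05, so that the rank test partly repeats the presence test. The smallest adjusted p was 0.119, reached by 72 sites of the genome, of which 3 were in the flanks.

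Besides the Ano6 site, these were in an intron of Slc38a1 and near Krt75. Slc38a1 encodes a transporter of glutamine and other neutral amino acids. Its intron site, chr15:96637685-96638914, ranked 3058, 3028 and 3037 in WT at 0 h, 110 and 266 at 1 h, and 2262, 2135 and 2602 at 18 h. In KO the ranks were 9548, 9638 and 8033 at 0 h, 961, 896 and 720 at 1 h, and 3603, 4278 and 2810 at 18 h. At each time every WT list ranked the site better than every KO list, by 1.49 on the log2 scale on average, and in both genotypes it ranked best at 1 h of LPS. The exact p was 0.00025.

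The site near Krt75, an epithelial keratin gene, lay 309 kb above Nr4a1 at chr15:101582744-101585081. It ranked 10783, 12611 and 12131 in WT at 0 h, 18665 and 11217 at 1 h and 14614, 13844 and 12284 at 18 h. In KO it ranked 6914, 5665 and 6069 at 0 h, 8789, 7392 and 9805 at 1 h, and 9881, 4330 and 4312 at 18 h. Every KO list ranked it better than every WT list of its time (log2 difference -0.98, exact p = 0.00025). Rank differences with less separation were also seen on the lower side. A site near Galnt6, which encodes an enzyme that starts O-glycosylation, 521 kb below, ranked 7400 to 16143 in KO and 11394 to 27757 in WT (exact p = 0.001). The genotypes overlapped there at 18 h, with WT replicate 2 at 11394 and KO replicate 2 at 11820. A site near Methig1, 904 kb below, ranked 1405, 7766 and 5014 in KO at 18 h and 17000, 16217 and 17127 in WT at 18 h (exact p = 0.005 over the 3 times). At 1 h no list of either genotype had an equal-length peak at the Methig1 site.

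**Figure D4:**
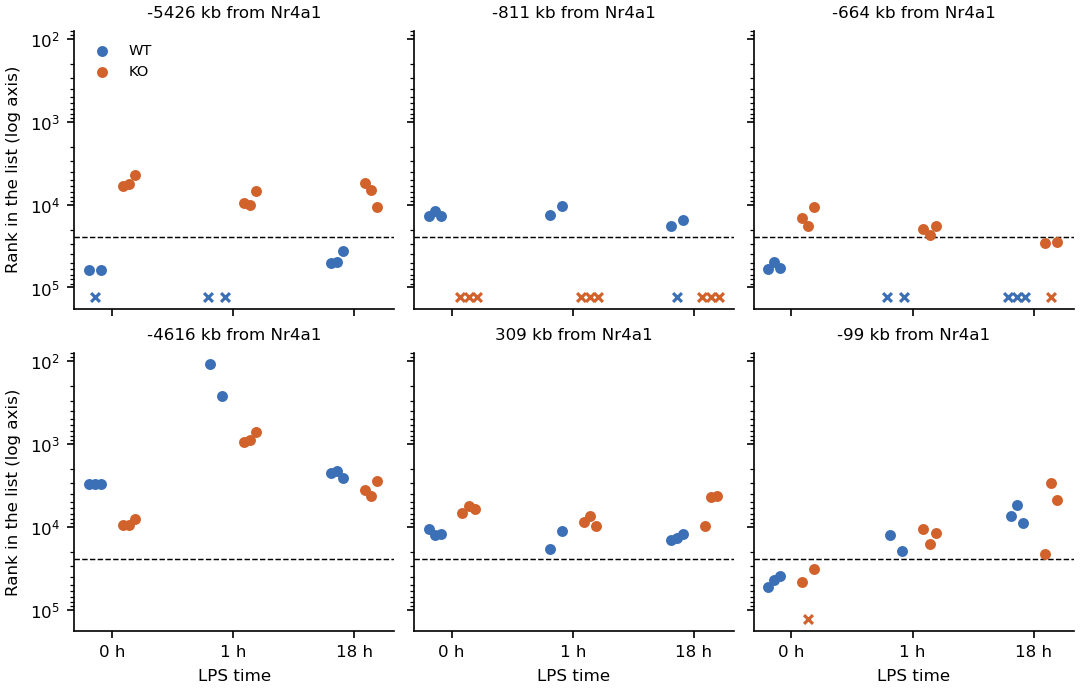
Rank of 6 flank sites in each deposited list on a log axis, best at the top, by LPS time for WT and KO. Crosses are lists with no peak and the dashed line is the equal length of 24389. WT and KO do not overlap at any time in the panels at 5426, 4616 and 309 kb.

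Sites chosen at 1 LPS time were then read at the other times, which their choice had not used. All-or-none differences at a single time were found at 10 flank sites at 0 h (3.16%, beside 0.942% of all sites tested in the genome), 11 at 1 h (3.48%, beside 2.03%) and 8 at 18 h (2.53%, beside 1.61%). These shares were not tested. At the other times, the genotype that had held a site held it more often on average over each set. The excess was 33.3 percentage points for the sites chosen at 0 h (exact p = 0.01), 27.3 points for those chosen at 1 h (exact p = 0.005) and 18.8 points for those chosen at 18 h (exact p = 0.005). Of the sites chosen at 18 h, the 3 held by KO had peaks in 72.2% of KO and 13.3% of WT lists at the other times, while the 5 held by WT had peaks in 52% of WT and 56.7% of KO lists. For sites of the rest of the autosomes chosen in the same way (306, 671 and 531 sites), the excess was 15.7, 2.56 and 7.45 points. The flanks exceeded the rest by 17.6 points (exact p = 0.055), 24.7 points (exact p = 0.005) and 11.3 points (exact p = 0.05), with adjusted p-values of 0.055, 0.0112 and 0.055 over the 9 tests. The difference held up after adjustment for the sites chosen at 1 h alone.

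Promoters of the flank genes differed little between KO and WT. Of 211 protein-coding genes, 59 had a promoter peak in all 17 equal-length lists, 50 in some and 102 in none. Of the 105 with a peak in 2 or more lists, 1 (0.952%) had an exact p under 0.05 for presence, beside 0.448% of 11158 promoters in the genome, and 10 (9.52%) had one for rank, beside 7.62%. No promoter passed an adjusted p of 0.05 in either measure, in the flanks or elsewhere.

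Of 13 genes next to Nr4a1, 3 had a promoter peak in every list, 7 in some and 3 in none. Dazap2, which encodes a small proline-rich adaptor protein, ranked between 174 and 1671. The promoter of Acvr1b, an activin receptor gene, was present in 16 lists, 8 of each genotype, and that of Grasp, a scaffold protein gene, in 14, 7 of each. None of those with a peak had an exact p under 0.05 in presence or rank. The 3 without a peak were not tested, among them Krt80, the only gene of this list above Nr4a1. The tested sites nearest to the excluded 61 kb behaved likewise: those 30, 32 and 56 kb below and 24, 41 and 43 kb above Nr4a1 had exact p-values of 0.45 to 1 for presence and 0.1225 to 0.6105 for rank.

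The innate immunity, phagocyte and metal transport genes numbered 19, of which 9 had a promoter peak in all lists and 3 in none. Irak4, the kinase that relays Toll-like receptor signals, was in all 17 lists with ranks of 550 to 3612, and Nckap1l, a haematopoietic regulator of actin, in all 17 with ranks of 885 to 3343. In this list 2 of the 19 genes had an exact p under 0.05 for rank, beside 7.62% of all promoters tested: Slc38a2 (0.0225) and Slc38a1 (0.02775), both transporters of neutral amino acids, and both ranked worse in KO, by 0.42 and 0.40 on the log2 scale. Of 27 transcription factor and chromatin genes, 13 were in all lists and 1 had an exact p under 0.05 for presence, beside 0.448% of all promoters tested. It was Kmt2d, a histone H3 lysine 4 methyltransferase gene, with a summit within 1 kb of a start site in 8 of 8 WT and 4 of 9 KO lists (exact p = 0.02). The merged site at Kmt2d is 6452 bp wide and had a peak in all 17 lists, so the difference lies in where the best summit fell. Of 14 cytoskeleton and trafficking genes, 7 were in all lists, and 2 had an exact p under 0.05 for rank, beside the same 7.62%: Lima1, an actin cross-linking protein gene (exact p = 0.0475, better in KO), and Map3k12, a neuronal kinase gene (exact p = 0.03625, worse in KO). The smallest adjusted p for the rank of a flank promoter was 0.564 in these exact tests.

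The keratin and Hoxc clusters, which serve epithelia and the body axis, had no promoter peak in either genotype. None of 26 keratin genes and none of 9 Hoxc genes had a promoter peak in any equal-length list, and 24 and 7 of them had none in any deposited list. Of 15 neuronal, cartilage and kidney genes, 13 had none. The exceptions were Wnt1, with 8 lists, and Kcnh3, a potassium channel gene, with all 5 lists at 1 h of LPS and none at 0 or 18 h. Their genotype difference was within the spread of the lists (exact p = 0.1 for Wnt1 and 1 for Kcnh3 in presence).

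LPS opened or closed few flank sites in the equal-length lists of both genotypes together. After 1 h, 6 flank sites (1.9%) were opened, with an equal-length peak in all 1 h lists and in no 0 h list, beside 2.73% of all sites, and 6 (1.9%) were closed, beside 1.94%. After 18 h, 2 sites (0.633%) were opened, beside 1.79%, and 1 (0.316%) was closed, beside 1.93%. Read within a genotype, which rests on fewer lists, the counts were larger. At 1 h 15 flank sites were opened (4.75%, beside 5.48% of all sites) and 28 closed (8.86%, beside 7.94%) in WT, which had 2 lists at that time. In KO 11 were opened (3.48%, beside 4.7%) and 11 closed (3.48%, beside 3.49%). At 18 h 12 were opened (3.8%, beside 5.65%) and 19 closed (6.01%, beside 5.37%) in WT, and 4 opened (1.27%, beside 2.65%) and 11 closed (3.48%, beside 4.01%) in KO. The difference between the genotypes in these counts was not tested.

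The site near Acvr1b, 99 kb below Nr4a1 at chr15:101154639-101155683, was opened at both times. It ranked 53934, 43424 and 39114 in WT at 0 h, 12523 and 19621 at 1 h and 7480, 5476 and 8965 at 18 h. In KO it ranked 45948 and 32269 in 2 of the 0 h lists, 10763, 16336 and 11873 at 1 h and 21399, 2948 and 4747 at 18 h. The 2 genotypes overlapped at every time (exact p = 0.71 for rank).

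Also opened at 1 h were an Slc11a2 intron site 843 kb below Nr4a1 and a site near Cacnb3, 2628 kb below. Closed at 1 h were the Bin2 promoter, a Dip2b intron site and a Lima1 intron site, as the 3 best ranked. Bin2 encodes a membrane-curving protein of blood cells, and its promoter had a peak in 6 of 6 equal-length lists at 0 h, 0 of 5 at 1 h and 4 of 6 at 18 h. In the deposited lists at 1 h it ranked 31331 in WT replicate 3 and 28762, 35572 and 36366 in KO, against 15907 to 22308 at 0 h. The Lima1 intron site ranked 24438, 25627 and 24559 in KO at 1 h, just past the equal length, and 24231, 22391 and 23241 in WT at 0 h, just within it. Closed thus means a lower rank at these sites and not the loss of the peak from every deposited list. A site near Tmbim6 was opened and 1 near Olfr283 closed at 18 h.

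Motif shares over all tested flank sites overlapped those elsewhere within counting error. Within 100 bp of the summit, AP-1 matched at 46 of 316 sites (14.6%, Wilson 95% interval 11.1 to 18.9%), beside 16.2% of the 33849 sites elsewhere. PU.1 matched at 7.59% (5.16 to 11.1%) beside 7.73%, C/EBP at 13% (9.71 to 17.1%) beside 17%, and NF-kB at 5.38% (3.39 to 8.45%) beside 4.83%. NBRE, the monomer site of Nur77, matched at 3 sites (0.949%, 0.323 to 2.75%), beside 1.08%. CTCF, which binds insulators and loop anchors, matched at 6.57% of distal flank sites (3.96 to 10.7%) and 3.56% (3.33 to 3.8%) of distal sites elsewhere. At distal sites C/EBP matched at 14.6% (10.4 to 19.9%) in the flanks and 20.8% (20.3 to 21.4%) elsewhere. For these 2 of the 6 motifs the intervals at distal sites did not overlap. Sites are not replicates, and these intervals cover counting error only. At 10 of the 14 sites with an exact p under 0.05 none of the 6 motifs matched, 0 matched NBRE and 1 matched AP-1. A missing match says only that these letters are not in that window.

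Seen against the whole genome, the flanks were high but not alone. Of 1183 autosomal windows of 1 Mb with 10 or more tested sites, 226 (19.1%) had a gap above 0 with an exact p under 0.05, and of the 9 in the flanks 6 (66.7%) did. The median gap was 0.0507 over the 9 flank windows and 0.0186 over all windows. With adjustment over all windows 25 passed 0.05, of which 1, with a gap of 0.0704 and an adjusted exact p of 0.0473, was in the flanks. Among 145 stretches of 12.9 Mb, the length of the window, 8 had a gap above that of the flanks, the highest being 0.0869 and the median 0.0197.

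**Figure D5:**
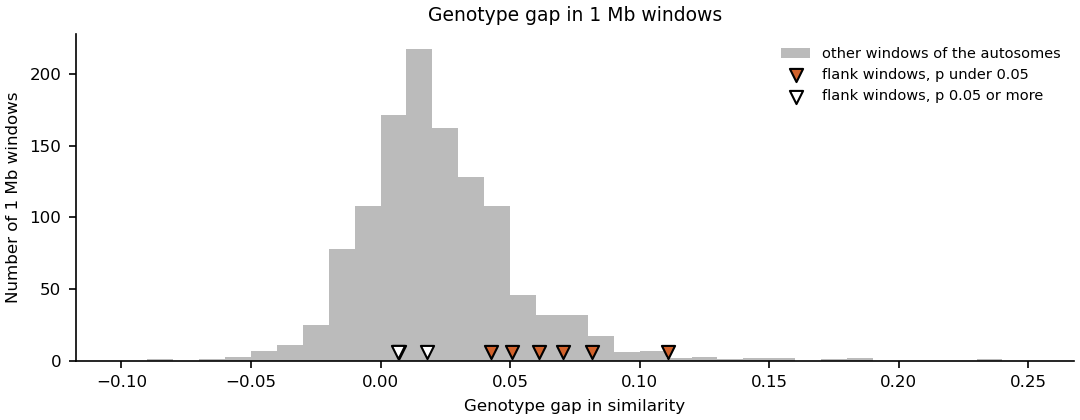
Genotype gap in 1 Mb windows of the autosomes (grey histogram, number of windows) and in the 9 flank windows (triangles, placed along the gap axis at a fixed height). The 6 filled triangles have an exact p under 0.05 and lie right of the median of all windows, 0.0186.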

How the data were processed

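ATAC-seq was performed on 17 samples, and the authors deposited 1 narrowPeak list per sample. The authors trimmed reads with cutadapt 2.6, mapped them to mm10, ran the snakeATAC pipeline and compared sites with DiffBind 3.0.15, as the submitters' processing notes and the methods state. The peak caller is not given in the sources used here. In the deposited files the score is a whole number that follows the q-value. The deposited fold is a ratio, of the reads piled up at the summit over background. P-values and q-values were deposited as −log10, and peak names carry a q threshold of 0.001. No read counts per site were used.

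Entries sharing an interval were collapsed (1001519 entries, 808470 intervals) and ranked in each list by −log10 p-value, ties at random (seed 1). These values depend on depth and were not compared between lists. Background reads per list were estimated from the steps of the fold column. It was assumed that a step is a single read and that the background is constant within a list. Divided by the shortest peak width, these reads gave a relative depth, which is an estimate. In KO 18 h replicate 1 that width was 66 bp, against 152 to 219 bp elsewhere. Sites, equal-length presence and the genotype gap were computed as described above (Python 3.11.15, numpy 2.4.6, scipy 1.17.1, pandas 2.3.3). Tests were two-sided exact permutation tests over 4000 regroupings with genotype exchanged within LPS time, and the code was tested on simulated data. Benjamini-Hochberg adjustment ran over all sites, bins, windows or promoters of a family. Annotation was GENCODE M21, and sequence was read from RefSeq GRCm38 with pysam 0.24.0 and samtools 1.23.1.

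The members, gene lists and rules were chosen with earlier results of these data known. Named were all-or-none sites, the 3 nearest tested sites on each side, the 5 best-ranked sites, promoters of the gene lists and LPS sites. Named after their values were seen were the other sites with a presence p under 0.05 or a rank p under 0.01 and the printed sequences of 4 of them. Of the listed genes, 6 were not in the flanks under that name and were dropped. The rank test, the reading at other times and the analysis without 18 h lists were added after seeing the data. Other alternatives were list length, overlap, site building, replicate block, depth and leaving out each list.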

Additional observations from a re-analysis of the deposited data

How the results depend on the processing

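The flank gap, the difference from the rest of the autosomes, the near-far difference and the peak share were recomputed under 29 alternatives where each could be run, as were the counts of sites. The difference from the rest kept its direction in all of them and passed 0.05 in 25 of 27. The flank gap was 0.0964 with all deposited peaks, 0.0946 with a −log10 q of at least 10, 0.112 with 50% cover and 0.0248 with depth at 1 width for all lists as a covariate (chosen after seeing the data), and the difference was 0.036 with the best 10000 peaks. It fell to 0.00981 (exact p = 0.149) when a peak had to cover 50% of a site, a setting in which the counts of all-or-none sites and of sites with p under 0.01 were both 0. With same-numbered KO and WT lists exchanged as pairs (replicate block, 14 lists, 128 regroupings), the gap was 0.0439 and the difference 0.0201, each with an exact p of 0.0625, the smallest this test allows, and 0 sites had p under 0.01, which the test can reach no lower than 0.0078. Of the same-number pairs, 0 of 7 had deviations correlated above 0.1 (-0.0355 to 0.00708). With 2 or 3 lists per group of unequal depth, this check cannot exclude that the numbers pair the lists. The peak share was 0.0411 points with the best 10000 peaks and 0.00345 with all deposited peaks, and ran from 0.00911 to 0.0228 with 1 list left out. The near-far difference turned to 0.0139 with a −log10 q of at least 10 and was -0.0214 (exact p = 0.259) on the lower side alone, an alternative chosen after seeing the data.

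Leaving out 1 list at a time, the gap ran from 0.0243 to 0.0648. It no longer passed without WT 18 h replicate 1 (0.0243, exact p = 0.059) or replicate 2 (0.0285, exact p = 0.063). The difference from the rest ran from 0.0185 to 0.0282 and passed each time. The near-far difference ran from -0.0568 to -0.0148 and passed 0.05 without KO 0 h replicate 1 (-0.0436), KO 1 h replicate 1 (-0.0545), KO 1 h replicate 3 (-0.0454) or KO 18 h replicate 3 (-0.0568). All-or-none sites numbered 1 to 2, with 2 without WT 18 h replicate 3, and sites with p under 0.01 numbered 2 to 4. With all deposited peaks there were 0 all-or-none sites, without the 18 h lists there were 3, and by rank 13 sites had p under 0.01. The cause of these changes was not tested. Depth limits the lists: absence from a deposited list of 24389 peaks is weaker evidence of a closed site than absence from one of 71456.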

Other observations

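The values of several sites within Lima1 are given here, chosen after they were seen, and the difference between the sites was not tested. A site in an intron, 1451 kb below Nr4a1, was in 5 of 8 WT and 0 of 9 KO equal-length lists (exact p = 0.01). A site at an internal start of the gene, 1434 kb below, was in 3 of 8 WT and 8 of 9 KO lists (exact p = 0.02). A further intron site, 1431 kb below, had no equal-length peak at 1 h of LPS in either genotype, although all KO lists at 1 h had a deposited peak there just past the equal length, and was in 6 WT and 5 KO lists, with a median rank of 22816 in WT and 13927 in KO (exact p = 0.02 for rank). The site at the 5′ end of the gene, 1379 kb below, was in 7 WT and 9 KO lists (exact p = 0.4 for presence). For rank the order was reversed, with an exact p of 0.0475 at the 5′ end and 0.121 at the internal start.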
